A study of Mus musculus with 15 samples.

Results

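Satellite cells are the stem cells of skeletal muscle, and the 8 genes described here follow their path from quiescence to a new muscle fibre. They were taken by symbol from the 56980 genes of the expression table, with Ensembl identifiers matched to GENCODE M39 names, and all 8 were found. Pax7 and Cdh15 mark satellite cells, Myf5, Myod1, Myog and Myf6 are the 4 myogenic regulatory factors, and Mymk and Mymx encode the membrane proteins that fuse myoblasts. Bulk RNA-seq was performed on 15 libraries, each from 1 mouse. All mice were DBA/2J-mdx, a strain without functional dystrophin, so no group had healthy muscle. For tibialis anterior (TA) muscle, 4 mice received dasatinib plus quercetin (D + Q) and 4 received vehicle, 2 times per week for 2 months, from 3 to 5 months of age. For heart, 3 mice received D + Q and 4 received vehicle, 2 times per week for 4 months, from 12 to 16 months of age. The D + Q TA mice were all male (4), whereas the vehicle TA mice were male in replicates 1 and 3 and female in replicates 2 and 4. The hearts were labelled as from 2 females and 1 male (replicate 3) with D + Q, and from 2 females and 2 males with vehicle.

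In an adult muscle, Pax7 keeps satellite cells as a reserve under the sheath of the fibre. After damage, Myod1 and Myf5 set the cells on the myogenic path, Myog drives their exit from the cell cycle and differentiation, and Myomaker and Myomixer, the products of Mymk and Mymx, join the cells into fibres. Myf6, also called MRF4, is expressed by mature fibres as well as during differentiation, and M-cadherin, the product of Cdh15, holds satellite cells to their fibre. In dystrophin-deficient muscle fibres are lost and replaced over and over, and heart muscle has no satellite cells. Bulk tissue mixes all these cells, so fewer cells of a type and less RNA per cell cannot be told apart.

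The values are TPM, a level per transcript length with 1 common total for all libraries, so the read depth is unknown and the number of mice sets the precision. Tissue identity followed the labels. The summed level of 10 genes of fast skeletal fibres was 43895 to 52642 TPM in TA, and that of 7 heart muscle genes was 16077 to 20335 TPM in heart against 4.37 to 48.1 TPM in TA. Xist matched the labelled sex in 8 of 8 TA libraries and in 6 of 7 heart libraries. The exception was the D + Q heart labelled male, with 47.2 TPM of Xist and 0.0159 TPM of the Y-linked Ddx3y, so that all 3 D + Q hearts had the pattern of females. Nothing in the labels ties mice together beyond their group, and p-values set a difference between groups against the spread between these mice.

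The myogenic regulatory factors bind the E-box, the letters CANNTG, which reads the same on both strands. Promoter windows in the RefSeq set (GRCm38.p6) held 4 of the 8 genes, Myog, Pax7, Cdh15 and Myf5, and Myod1, Myf6, Mymk and Mymx were not among them. The 250 bases before the annotated start are shown, from 5′ to 3′ along the gene, for Myog, the factor of differentiation, and for Pax7, the factor of the reserve cells, with every E-box in capitals. The Myog window lies on the + strand at chr1:134289754-134290003 and the Pax7 window on the - strand at chr4:139832969-139833218.
Myog: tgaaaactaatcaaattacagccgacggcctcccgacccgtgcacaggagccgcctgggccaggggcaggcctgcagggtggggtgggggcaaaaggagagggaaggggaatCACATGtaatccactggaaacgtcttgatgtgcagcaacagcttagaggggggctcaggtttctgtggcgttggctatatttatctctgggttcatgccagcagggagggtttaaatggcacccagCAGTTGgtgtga
Pax7: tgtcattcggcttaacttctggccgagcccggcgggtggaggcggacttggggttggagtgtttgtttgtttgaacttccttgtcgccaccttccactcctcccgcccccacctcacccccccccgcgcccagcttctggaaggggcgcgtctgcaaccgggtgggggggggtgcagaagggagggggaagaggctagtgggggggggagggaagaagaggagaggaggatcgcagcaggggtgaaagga
Myog held 2 E-boxes, CACATG beginning at position -138 and CAGTTG at -12 counted from the start of the gene, and Cdh15 held 3, at -236, -135 and -32. Pax7 and Myf5 held none. Of 32851 windows of this length, 66.2% held at least 1 E-box. A match describes these letters and not a bound site.

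D + Q and vehicle TA muscles did not differ in any of the 8 genes beyond the spread between mice. Of the 8, 5 lay higher and 3 lower with D + Q in limma on log2(TPM + 0.5), and 0 passed an adjusted p under 0.05 with an absolute log2 fold change above 0.5. Over all 16298 genes tested, 0% passed the same thresholds, 2.99% had an unadjusted p under 0.05 and 1.52% had groups that did not overlap. Among the 8 genes, 0 met either of the last criteria. Their median log2 fold change was 0.058, beside -0.072 for all genes.

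**Figure D1:**
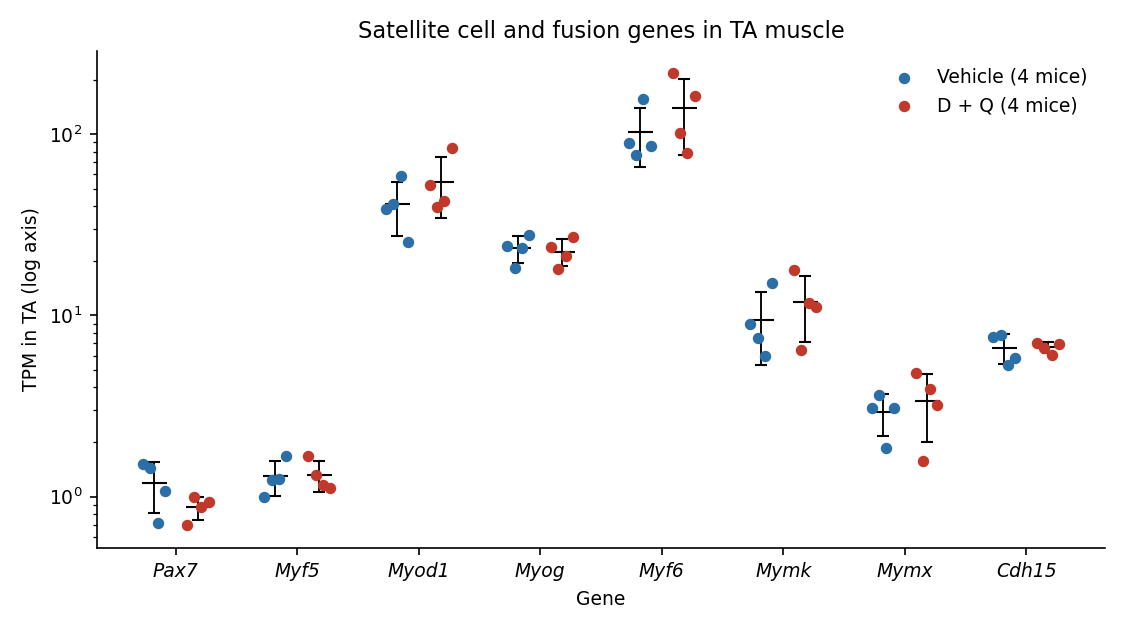
TPM of the 8 genes in TA muscle on a log axis, with 1 point per mouse and black bars for the mean ± SD of 4 vehicle mice (blue) and 4 D + Q mice (red). The groups overlap for every gene, and Myf6 is the highest of the 8 in both groups.

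Pax7 (ENSMUSG00000028736, chr4:139464373-139560839 on GRCm39, - strand) was among the lowest of the 8 genes. With vehicle it was at 1.52, 1.44, 0.711 and 1.08 TPM in replicates 1 to 4, and with D + Q at 0.694, 0.988, 0.872 and 0.929 TPM. The 3 highest values were all from vehicle mice, and vehicle replicate 3 fell among the D + Q mice, so that the groups overlapped. The mean was 0.871 ± 0.127 TPM with D + Q and 1.19 ± 0.371 TPM with vehicle (SD, n = 4 each). The log2 difference was -0.21 (SE 0.22, 95% confidence interval -0.69 to 0.27, adjusted p = 0.999).

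Cdh15 (ENSMUSG00000031962, chr8:123574705-123596048, + strand) varied least between mice, 1.46-fold from the lowest to the highest. It stood at 7.63, 7.77, 5.33 and 5.85 TPM with vehicle and at 7.04, 6.61, 6.02 and 6.91 TPM with D + Q. All 4 D + Q mice lay inside the range of the vehicle mice. The log2 difference was 0.010 (SE 0.17, 95% confidence interval -0.38 to 0.40, adjusted p = 0.999). The 2 satellite cell markers thus gave means that differed between groups by 1 SD or less of the vehicle mice.

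Of the determination factors, Myf5 (ENSMUSG00000000435, chr10:107318769-107321995, - strand) was low. It measured 1.00, 1.23, 1.25 and 1.68 TPM with vehicle and 1.68, 1.31, 1.16 and 1.11 TPM with D + Q. The highest mouse of each group was at 1.68 TPM, and the lowest of all was a vehicle mouse. The log2 difference was -0.0075 (SE 0.21, 95% confidence interval -0.47 to 0.46, adjusted p = 0.999), and its sign changed with the scaling and the covariate.

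Myod1 (ENSMUSG00000009471, chr7:46025870-46028526, + strand) was at 25.3 TPM or more in every TA. It was at 38.6, 41.3, 58.6 and 25.3 TPM with vehicle and at 52.1, 39.6, 43.0 and 83.8 TPM with D + Q. D + Q replicate 4 was the highest of all mice and vehicle replicate 4 the lowest, with the other 6 mice between 38.6 and 58.6 TPM. The mean was 54.6 ± 20.2 TPM with D + Q and 41.0 ± 13.7 TPM with vehicle, and the log2 difference of 0.27 (SE 0.24, 95% confidence interval -0.26 to 0.80) had the smallest unadjusted p of the 8 genes, 0.289 in limma (adjusted p = 0.999). Among male mice alone, 4 with D + Q and 2 with vehicle, the log2 difference was 0.13.

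Myog (ENSMUSG00000026459, chr1:134217707-134220287, + strand), whose promoter window is printed above, varied 1.54-fold over the 8 mice. It was at 24.0, 18.2, 23.6 and 27.8 TPM with vehicle and at 23.8, 18.1, 21.1 and 26.9 TPM with D + Q. The ranges of the groups nearly coincided. The log2 difference was -0.094 (SE 0.17, 95% confidence interval -0.47 to 0.29, adjusted p = 0.999).

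Myf6 (ENSMUSG00000035923, chr10:107328712-107330656, - strand) lies 6716 bases from Myf5 on the same strand. It measured 88.8, 77.2, 157 and 86.2 TPM with vehicle, and 217, 101, 78.5 and 162 TPM with D + Q. D + Q replicates 1 and 4 and vehicle replicate 3 were the 3 highest, at 157 TPM and above, and the other 5 mice reached at most 101 TPM. With the surrogate variable in the model, a per-mouse term estimated from all genes, the log2 difference was 0.13 (SE 0.13, 95% confidence interval -0.15 to 0.41, adjusted p = 0.999). Without it the difference was 0.39 (SE 0.32, adjusted p = 0.999 in limma). Among male mice alone, also without the surrogate variable, the difference was 0.13. Only 2 vehicle mice were male, and 1 of them was replicate 3, the highest vehicle mouse for Myf6.

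The fusion genes had wide intervals. Mymk (ENSMUSG00000009214, chr2:26951627-26962228, - strand) was at 8.91, 7.49, 5.98 and 15.2 TPM with vehicle and at 17.8, 6.48, 11.7 and 11.1 TPM with D + Q. Both groups spanned nearly the whole range. The log2 difference was 0.28 (SE 0.33, 95% confidence interval -0.46 to 1.02, adjusted p = 0.999). Among male mice alone it was 0.57 (SE 0.36, adjusted p = 1 in limma), and without vehicle replicate 3 it was -0.024.

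Mymx (ENSMUSG00000079471, chr17:45911239-45913028, - strand) was at 3.10, 3.62, 1.85 and 3.08 TPM with vehicle and at 4.80, 1.56, 3.94 and 3.19 TPM with D + Q. D + Q mice held both the lowest and the highest value. The log2 difference was 0.11 (SE 0.31, 95% confidence interval -0.59 to 0.80, adjusted p = 0.999). It was -0.18 without vehicle replicate 3 and 0.45 without D + Q replicate 2, which was the lowest mouse. Among male mice alone the difference was 0.33.

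**Figure D2:**
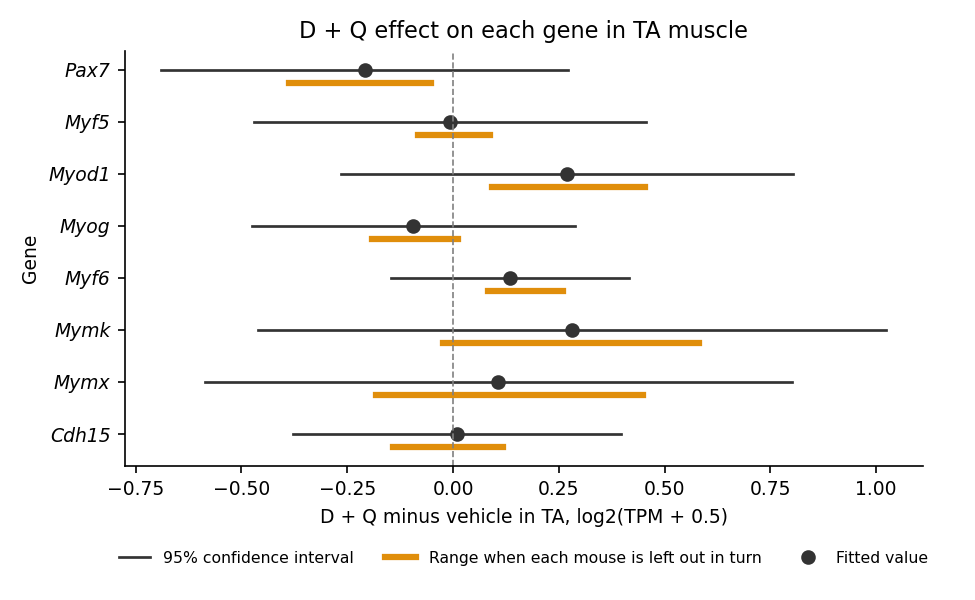
Difference of D + Q minus vehicle in TA on the log2(TPM + 0.5) scale for each gene, with a point for the fitted value, a black line for its 95% confidence interval and an orange line for the range of the value when each of the 8 mice was left out in turn. Every interval includes 0, and that of Mymk is the widest, from -0.46 to 1.02.

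In the model with the surrogate variable, both bounds of the interval lay within 0.5 of 0 on the log2(TPM + 0.5) scale for Myf5, Myog, Myf6 and Cdh15. Myf5 was at 1.00 to 1.68 TPM, where the added 0.5 shrinks changes, so a change of 0.5 in its log2 TPM was not excluded. For Pax7, Myod1, Mymk and Mymx a change of 0.5 in at least 1 direction remained inside the interval. For Myf6 the narrow interval rests on the surrogate variable, which correlated with it at r = 0.96. Without that variable the Myf6 difference was 0.39, with the larger SE given above, and a change of 0.5 was not excluded.

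Ratios of these genes within a library, computed after adding 0.5 to each TPM, were compared for 4 steps of the path with an exact two-sided permutation test over 70 splits, whose smallest possible p is 0.0286. The log2 ratio of Myog to Pax7, differentiation over reserve, was 4.06 ± 0.32 with D + Q and 3.84 ± 0.49 with vehicle (SD, n = 4 each, exact p = 0.457). That of Myod1 to Pax7 was 5.27 ± 0.50 and 4.59 ± 0.70 (exact p = 0.171). That of Mymk to Myog, fusion over differentiation, was -0.97 ± 0.45 and -1.34 ± 0.43 (exact p = 0.314), and that of Myf6 to Myog was 2.51 ± 0.53 and 2.06 ± 0.46 (exact p = 0.286). All 4 ratios were higher on average with D + Q, and none had an exact p under 0.05. Each has Pax7 or Myog as its denominator, so the 4 directions are not independent. The difference in the ratio of Myod1 to Pax7, 0.68, was 0.33 in males only and 0.48 to 1.02 with any 1 mouse left out, and that of Myog to Pax7, 0.22, was 0.097 in males only and 0.028 to 0.38. In males only the differences were 0.67 for Mymk to Myog, against 0.37, and 0.23 for Myf6 to Myog, against 0.45. With Pax7 near 1 TPM, the added 0.5 lowers its ratios, and the difference of Myog to Pax7 was 0.31 with 0.1 in its place.

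Levels per length could be ordered within each TA library. Myf6 ranked 1 in 8 of 8 mice and Mymx ranked 6 in 8 of 8. Myod1 ranked above Myog in 7 of 8 mice, the exception being vehicle replicate 4, with 25.3 against 27.8 TPM. Mymk and Cdh15 exchanged ranks 4 and 5, with Mymk above in 6 of 8 mice. Pax7 and Myf5 shared the last ranks, with Pax7 lowest in 6 of 8 mice. The neighbours Mymk and Cdh15, and Myf5 and Pax7, therefore did not keep their order over the mice.

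The 8 genes did not vary together from mouse to mouse. Over the 8 TA libraries, which share tissue, age and one scaling, Pearson's r of log2(TPM + 0.5) was 0.77 between the fusion genes Mymk and Mymx (Spearman's rho 0.67), and 0.54 without the 2 mice farthest from the median of Mymk. Myod1 and Myf6 had r = 0.69 (rho 0.57), and 0.80 without the 2 farthest mice. Pax7 and Myf6 had r = -0.72 (rho -0.62), and -0.72 without those mice. Pax7 and Cdh15 had r = 0.64 (rho 0.45), which fell to 0.043 without the 2 farthest mice and so rests on them. The neighbouring genes Myf5 and Myf6 had r = 0.30. These values describe 8 mice and carry no test.

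Myf6 followed a set of genes that separated the same 3 mice from the rest. The genes whose levels were most like it, of 16297 compared, were Fgl2, Rcan1, Sox9, Ch25h and Slc39a14, with r from 0.990 to 0.994 over the 8 libraries. Fgl2, a fibrinogen-like protein of immune regulation, measured 504 TPM in D + Q replicate 1, 180 TPM in D + Q replicate 4 and 181 TPM in vehicle replicate 3, and between 16.3 and 39.8 TPM in the other 5 mice. Rcan1, an inhibitor of calcineurin, was at 357, 211 and 209 TPM in the same mice and between 26.2 and 62.9 TPM elsewhere. Ankrd1, a stress-responsive protein of the sarcomere, had r = 0.93 with Myf6, and Sdc4, a syndecan of the satellite cell surface, had r = 0.98. D + Q replicates 1 and 4 and vehicle replicate 3 were also the 3 highest mice for Myod1, and for 6.39% of all genes tested in TA. These 3 mice were singled out after their values had been seen. The surrogate variable correlated with Myf6 at r = 0.96, with Myod1 at 0.64 and with Pax7 at -0.59.

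Mymk varied differently. Its 5 most similar genes were Myl4, Cyth1, Tmsb10, Myh3 and Nebl, with r from 0.872 to 0.948, and Myl4 and Myh3 belong to the list of embryonic and regenerating fibre genes. Myl4, the embryonic and atrial light chain of myosin, measured 40.6, 42.0, 34.4 and 74.1 TPM in vehicle replicates 1 to 4, beside 79.6, 34.6, 69.2 and 46.6 TPM in the D + Q mice. Myh3, the embryonic heavy chain, measured 9.58, 9.06, 4.42 and 42.9 TPM in the vehicle mice, beside 24.9, 8.06, 28.1 and 10.2 TPM in the D + Q mice. D + Q replicates 1 and 3 and vehicle replicate 4 were the 3 highest mice for Mymk, Myl4, Myh3, Tmsb10 and Cyth1, which held for 0.27% of the genes tested in TA. These genes were picked for their r with Mymk over the same mice, and the 3 mice were singled out after their values had been seen. The shared order therefore carries no support of its own. The groups overlapped for Myl4 and Myh3 as for Mymk. Mymx was most like Chrng among the listed embryonic fibre genes (r = 0.88), the fetal subunit of the acetylcholine receptor.

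**Figure D3:**
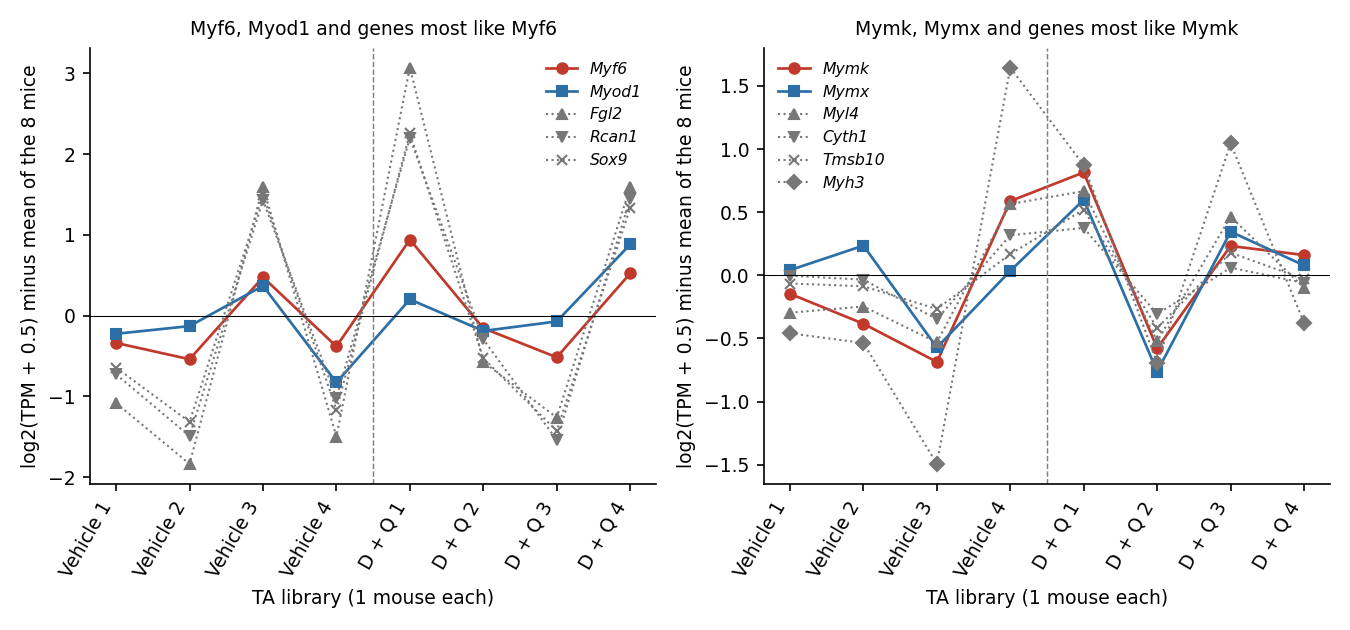
Level of each gene in each TA mouse on the log2(TPM + 0.5) scale minus the mean of the 8 mice, with vehicle mice left and D + Q mice right of the dashed line, for Myf6 and Myod1 with 3 genes most like Myf6 (left panel) and for Mymk and Mymx with 4 genes most like Mymk (right panel). In the left panel vehicle replicate 3 and D + Q replicates 1 and 4 stand above the others, and in the right panel Mymk, Myl4, Cyth1, Tmsb10 and Myh3 are highest in vehicle replicate 4 and D + Q replicates 1 and 3.

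Cdh15 had a positive r with 86.7% of all genes tested in TA (median r 0.39), so its likeness to single genes was not described. Pax7 was most like Zfp612 (r = 0.99), a zinc finger protein that measured 3.49, 3.48, 2.01 and 2.84 TPM in the vehicle mice, beside 1.76, 2.48, 2.30 and 2.31 TPM in the D + Q mice. Zfp612 thus ordered the mice as Pax7 did (rho 1). Capza1, an actin-capping protein, ordered them as Myod1 did (rho 1, r = 0.97). The 5 genes most like Myog were unnamed gene models, with r of at most 0.877.

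The rest of the satellite cell programme also gave no call. Of 20 genes of the satellite cell surface and of quiescence, 17 were tested, 5 lay higher and 12 lower with D + Q and 0 were called, with a median log2 fold change of -0.24 beside -0.072 for all genes. Sdc4 measured 23.2, 20.5, 52.2 and 18.5 TPM in the vehicle mice, beside 94.1, 26.5, 24.1 and 59.4 TPM in the D + Q mice (log2 difference 0.35, SE 0.15, unadjusted p = 0.0393, adjusted p = 0.999 in limma). Sdc4 had r = 0.98 with Myf6, which had r = 0.96 with the surrogate variable. The difference, SE and p of Sdc4 therefore rest on that variable, as for Myf6, and values without it are not given. Hey1, a target of Notch, measured 3.56, 2.97, 3.44 and 1.47 TPM in the vehicle mice, beside 1.83, 1.59, 1.44 and 2.28 TPM in the D + Q mice (log2 difference -0.61, SE 0.24, unadjusted p = 0.0309, adjusted p = 0.999 in limma). Both sets of values overlapped, and for Hey1 1 vehicle mouse, replicate 4, lay within the D + Q range. Met, the receptor of hepatocyte growth factor, had a log2 difference of 0.20 (SE 0.15, unadjusted p = 0.219 in limma), and Sdc3, another syndecan, one of -0.35 (SE 0.16, unadjusted p = 0.0542 in limma).

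Among 17 partners and inhibitors of the myogenic factors, all tested, 4 lay higher and 13 lower and 0 were called, with a median of -0.12. Tcf4, an E protein that pairs with the factors, had a log2 difference of -0.26 (SE 0.15, adjusted p = 0.999 in limma) and Six4, a homeobox protein, one of -0.30 (SE 0.19). Zbtb18, a repressor, lay at 0.063 (SE 0.14) and Mstn, which encodes myostatin, at 0.10 (SE 0.25). Of 20 contact and fusion partners of myoblasts, 17 were tested, 3 lay higher and 14 lower and 0 were called, with a median of -0.13. Jam2, an adhesion molecule, had a log2 difference of -0.25 (SE 0.16) and Trio, an exchange factor for Rac, one of -0.24 (SE 0.19), and Tmem182, a muscle membrane protein, lay at 0.099 (SE 0.11) and Arf6 at 0.039 (SE 0.13). Of 10 embryonic and regenerating fibre genes, 6 lay higher and 4 lower and 0 were called, with a median of 0.092. Myh3 had a log2 difference of 0.59 (SE 0.61) and Actc1, cardiac alpha-actin, one of 0.28 (SE 0.25), and H19, an imprinted noncoding RNA, lay at -0.53 (SE 0.37) and Chrna1 at -0.14 (SE 0.12). H19 was at 2120 and 1852 TPM in the 2 female vehicle mice and between 625 and 996 TPM in the 6 males, and the part of sex was not tested. Of 9 cell division genes tested, 5 lay higher and 4 lower and 0 were called, with a median of 0.0058. Ccnb1, a mitotic cyclin, had the smallest unadjusted p of these, 0.275 in limma, with a log2 difference of 0.35 (SE 0.30).

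Markers of other cells in the muscle gave these values beside the 8 genes. The sum of 9 leukocyte markers was 343 to 683 TPM with D + Q and 270 to 488 TPM with vehicle, and that of 7 fibroblast and fibro-adipogenic progenitor markers was 971 to 1642 and 1261 to 1736 TPM. The sum of 5 endothelial markers was 112 to 167 and 132 to 214 TPM, and 5 of 5 lay lower with D + Q (median log2 difference -0.26). The sum of 4 adipocyte markers was 0.677 to 3.63 and 1.40 to 5.52 TPM, and 3 of 3 tested lay lower (median -0.53). Also lower were 6 of 7 fibroblast and progenitor markers, 4 of 5 smooth muscle and pericyte markers and 5 of 5 Schwann cell markers. Of 7 leukocyte markers tested, 4 lay higher, and the median over all genes was -0.072. Kdr, the VEGF receptor of endothelium, had a log2 difference of -0.59 (SE 0.23), Lum, a fibroblast proteoglycan, one of -0.60 (SE 0.24), and Plin1, the coat protein of fat droplets, one of -0.81 (SE 0.32). These 3 had an unadjusted p under 0.05 and an adjusted p of 0.999 in limma. None of the markers was called, and their part in the values of the 8 genes was not tested.

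The heart served as the tissue without satellite cells, and the 8 genes were at or near 0 TPM there. No value in any of the 7 hearts exceeded 0.228 TPM, and 0 of the 8 genes passed the filter of 0.5 TPM in at least 3 hearts, so D + Q and vehicle hearts were not compared by a test. Myf5 was listed at 0 in all 7 hearts. Pax7 was listed at 0 in 6 hearts and at 0.0081 TPM in D + Q replicate 3. With vehicle, Myf6 and Mymx were listed at 0 in all 4 hearts.

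The remaining genes were each above 0 in 1 to 4 of the 7 hearts. Myod1 was at 0.0171 and 0.0187 TPM in vehicle replicates 2 and 4 and at 0.0297 TPM in D + Q replicate 2, and at 0 in the other 4. Myog was at 0.0220 and 0.0719 TPM in the same vehicle hearts and at 0.228 TPM in D + Q replicate 2. D + Q replicate 2 thus had the highest Myod1 and Myog of all hearts, and 5 of the 8 genes above 0. Mymk was at 0.0283 TPM in vehicle replicate 2 and at 0.0488 TPM in D + Q replicate 2. Cdh15 was highest in vehicle replicate 4, at 0.0405 TPM, beside 0.0069 and 0.0093 TPM in vehicle replicates 1 and 2 and 0.0162 TPM in D + Q replicate 2. Mymx was above 0 only in D + Q replicate 3, at 0.108 TPM.

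That heart also stood apart in the genes of fast skeletal fibres. Their sum was 113 TPM in D + Q replicate 2 and 8.81 to 11.9 TPM in the other 6 hearts. In those 6, Casq1, a calcium-binding protein of the sarcoplasmic reticulum, made up 54.6% to 80.2% of the sum, and without it the sum was 104 TPM in D + Q replicate 2 and 1.98 to 4.83 TPM in the others. The summed level of the 8 genes was 0.416 TPM in D + Q replicate 2, beside 0 to 0.131 TPM in the others. In D + Q replicate 2 the sum of the 8 genes was 0.367% of the fast fibre sum, within the 0.310% to 0.739% measured in TA. In the other 6 hearts this share was 0% to 1.19%, and none lay within the TA range. The order of the genes differed from TA, with Myog at 0.228 TPM above Myf6 at 0.0928 TPM in D + Q replicate 2. The part of skeletal muscle RNA in these traces was not tested.

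**Figure D4:**
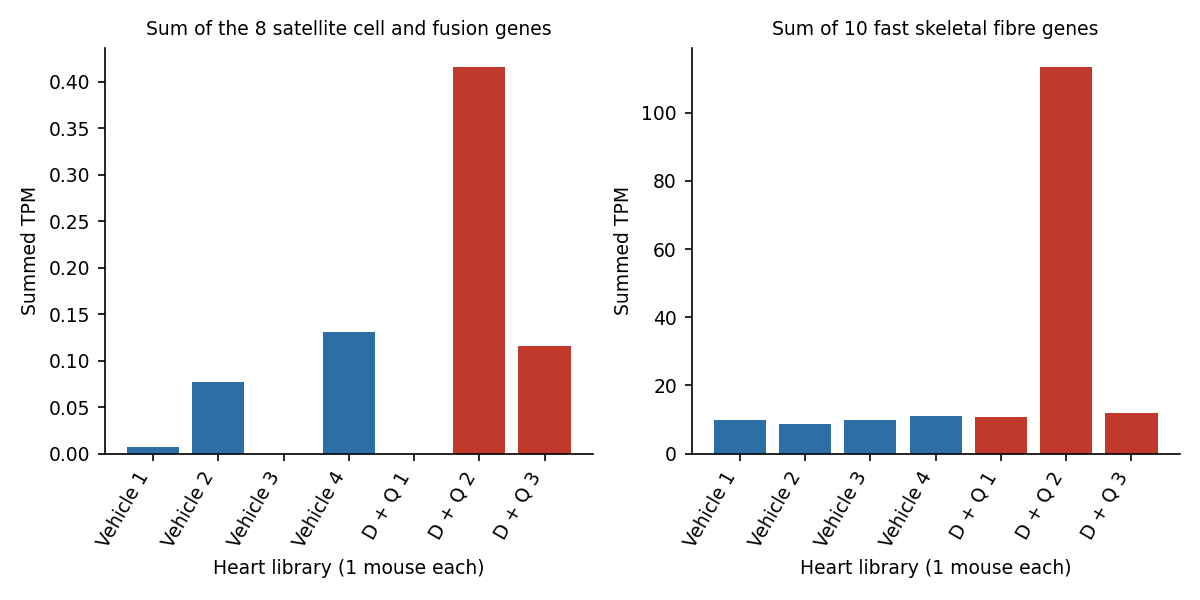
Summed TPM of the 8 genes (left panel) and of 10 fast skeletal fibre genes (right panel) in each of 4 vehicle hearts (blue bars) and 3 D + Q hearts (red bars). D + Q replicate 2 has the tallest bar in both panels, 0.416 and 113 TPM, and vehicle replicate 3 and D + Q replicate 1 have 0 for the 8 genes.

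Between tissues, each of the 8 genes was higher in TA than in heart with vehicle and with D + Q, with no overlap between mice and a call in limma for 8 of 8. All 8 entered this fit of 17868 genes through their TA level, so the count carries no support of its own. In the same direction, 22.6% of all genes were called with vehicle and 21.4% with D + Q. As a description, the vehicle difference on the log2(TPM + 0.5) scale was 6.29 for Myod1, 5.50 for Myog and 3.78 for Cdh15. These sizes depend on the pseudocount, since the heart levels lie below it, and with 0.1 in place of 0.5 they were 8.50, 7.60 and 5.88. Against hearts listed at 0, as for Myf5, no ratio is given. Tissue cannot be told apart from age and from the length of treatment, which differed with it.

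**Figure D5:**
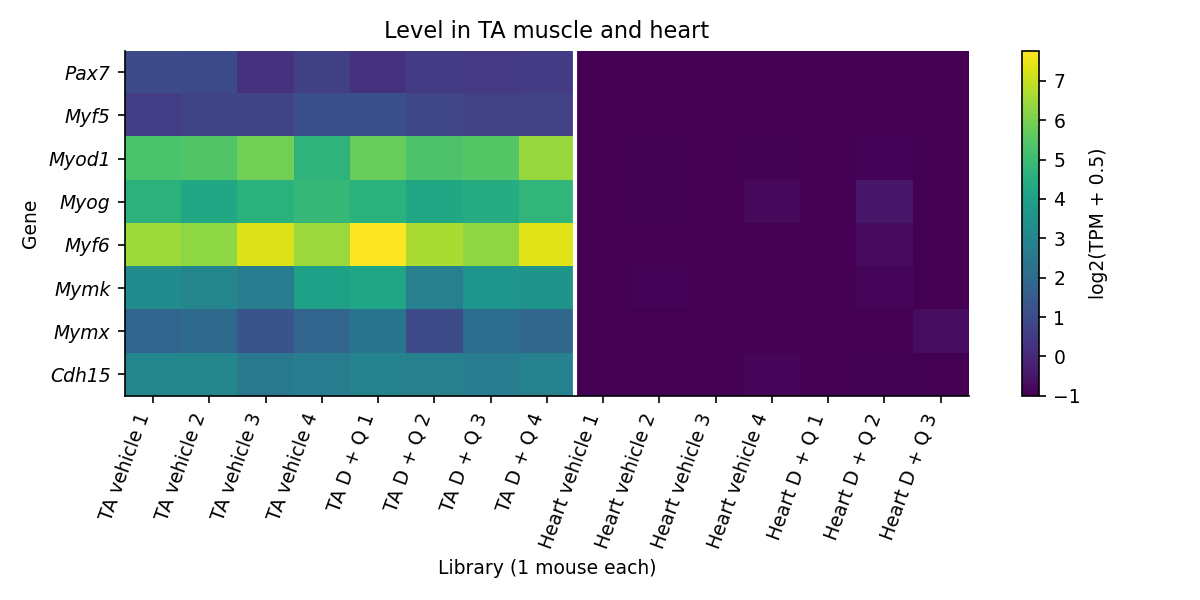
Level of the 8 genes in all 15 libraries as log2(TPM + 0.5), 1 column per mouse, with TA left and heart right of the white line and the colour scale at the right. The 7 heart columns lie near the floor of the scale, with Myog in D + Q replicate 2 the brightest heart cell at 0.228 TPM.

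The related lists held genes that the heart also expresses. Of the 17 tested genes of the satellite cell surface and of quiescence, 9 were called higher and 2 lower in vehicle TA than in vehicle heart, beside 14.1% of all genes called lower, and Vcam1, an adhesion molecule also present on vessels, was lower in TA (log2 difference -1.07, SE 0.17, adjusted p = 0.000123 in limma). Of the 17 contact and fusion partners tested, 6 were called higher and 3 lower, and Cdh2, the N-cadherin of heart muscle junctions, was lower in TA by -5.31 (SE 0.18, adjusted p = 2.65e-12 in limma). Of the 17 partners of the myogenic factors, 8 were called higher and 1 was called lower, Id3, at -1.19 (SE 0.37, adjusted p = 0.0173 in limma). These genes were chosen after their values had been seen.

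The difference in the D + Q effect between TA and heart was tested as an interaction, in which 0.0616% of 17868 genes were called and 0 of the 8. All 8 entered this fit through their TA level and lay near the floor in heart, so it is not independent of the TA comparison. The estimates ran from -0.28 for Pax7 (SE 0.24) to 0.41 for Myod1 (SE 0.35), with adjusted p of at least 0.956 in limma. The heart part of the estimate was 0.12 for Myog and 0.094 for Mymx, beside TA differences without covariate of -0.058 and 0.13, and between -0.024 and 0.082 for the other 6 genes. Without D + Q heart replicate 2, the Myog estimate of -0.17 was 0.0064.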

How the data were processed

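Bulk RNA-seq of TA (4 D + Q, 4 vehicle) and heart (3 D + Q, 4 vehicle) was deposited as 1 table of TPM. The authors prepared mRNA libraries, trimmed reads with Trim Galore 0.6.10, quantified them with Salmon 1.10.3 against GRCm39 and summarised them per gene with tximport. TPM sums to 1000000 in each library and keeps no depth, so no counting error can be given, and the DESeq2 test the authors used on counts was not run.

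Of 56980 identifiers, 56236 were found in GENCODE M39. In R 4.3.3 with limma 3.58.1, genes reaching 0.5 TPM in 3 or more of the mice fitted were kept, and log2(TPM + 0.5) was modelled with lmFit and eBayes (trend), with Benjamini-Hochberg adjustment over all genes tested. A call needed an adjusted p below 0.05 with a log2 fold change over 0.5 in size. TA models held 1 surrogate variable (5 rounds of re-weighting, written out for these values), heart models held labelled sex, and tissue contrasts used 4 group means without covariates. Code was tested on simulated data. Fold changes on this scale understate changes of low genes.

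Named genes were the 8 members, and genes of the other lists by their unadjusted p in TA. The 2 smallest in each direction were named for the satellite cell, partner, contact and embryonic fibre lists. For cell division genes the smallest was named. Markers of other cells were named in the TA comparison only with an unadjusted p under 0.05, and all of those lay lower. Genes like Pax7, Myod1, Myog, Myf6 and Mymk were taken from the 5 with the highest Pearson r to each. Members and lists were chosen with earlier results of these data known. Genes named for tissue differences, and Ankrd1 and Chrng, were chosen after their values had been seen. No 2 libraries were identical (r from 0.949 to 0.982 within groups). Alternatives were other pseudocounts, filters, scaling, covariates, a replicate block and leaving out each mouse. Promoter letters came from RefSeq, GRCm38.p6. Protein sequences were not used here.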

Additional observations from a re-analysis of the deposited data

Results flagged for a closer look

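Among the 16 sets of 4 TA values examined (8 genes in each group) for a mouse far from the others, 1 was flagged. Myf6 in vehicle TA replicate 3 was at 157 TPM, above the other 3 vehicle mice at 77.2 to 88.8 TPM, and its gap to the nearest was 0.853 of the group's range, beyond Dixon's 95% critical value for 4 samples. Chance flags about 1 in 20 such groups. The same mouse was among the 3 highest for Myod1, Fgl2, Rcan1 and Ankrd1.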

How the results depend on the processing

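No member was called in TA or in the interaction under any alternative. In TA, 0 of all genes were called in the main fit and 0 to 2 under any alternative, so the count of members there says little of stability. The tissue call of the 8, which their near-absence in heart fixes, says nothing of it. The interaction is no separate check either, since the heart values lie near the floor. Over all values and alternatives, 28 reversed, 29 moved and 889 kept their direction and side of the threshold, or, for counts, stayed within 1.5 times. This tally includes the tissue contrasts and the heart counts of members called, which could hardly change, so the 889 is no measure of stability. Myf5 in TA turned to 0.031 with median-of-ratios scaling, 0.020 with the replicate block, 0.020 without a covariate, and 0.15 with sex as covariate or in males only. Mymx turned to -0.21 in the interaction with a pseudocount of 0.1. Median-of-ratios scaling moved the median of all genes in TA from -0.072 to 0.0029. Genes called in heart were 51, and 0 without the filter, 13 without the trend, 25 with sex read from expression and 1 with the replicate block. In the interaction 11 genes were called, and 7 with a pseudocount of 1, 5 without the filter and 5 with the block. Causes were not tested.

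Leaving out each mouse in turn gave 0 to 2 genes called in TA, 0 to 136 in heart (0 without vehicle replicate 2, 136 without vehicle replicate 3) and 5 to 14 in the interaction. In TA, Cdh15 ranged from -0.14 to 0.12, Myf5 from -0.084 to 0.087, Mymk from -0.024 to 0.58, Mymx from -0.18 to 0.45 and Myog from -0.19 to 0.013, and without a change of sign Pax7 from -0.39 to -0.051, Myod1 from 0.092 to 0.45 and Myf6 from 0.083 to 0.26. In the interaction, Cdh15 ranged from -0.053 to 0.11, Myf5 from -0.071 to 0.12, Mymx from -0.14 to 0.31 and Myog from -0.29 to 0.0064. Without vehicle replicate 3, 1188 TA genes had an unadjusted p under 0.05, against 488 with all mice. Replicate numbers did not pair the mice (deviations of same-numbered TA mice correlated at -0.30 to 0.037, and 0 of 4 pairs correlated best with their own number), and with the block in TA 0 genes were called. Depth is unknown, and Pax7, Myf5 and heart values are few TPM or less.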
